A study of Homo sapiens with 12 samples.

Results

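Replication-dependent histone genes encode the canonical H1, H2A, H2B, H3 and H4 proteins. They were followed here in 12 RNA-seq libraries of 3 human lymphoma cell lines, 2 of which had been treated with an inhibitor of EZH2, the methyltransferase that marks histone H3 at lysine 27. Members were the genes whose symbols carry the HIST prefix, a number from 1 to 4 and a class of H1, H2A, H2B, H3 or H4. They lie on a primary chromosome and have no symbol ending in PS and a digit. They came to 76 of the 63129 gene IDs in the table. Of these, 6 are H1, 17 are H2A, 23 are H2B, 15 are H3 and 15 are H4 genes. The counts include HIST2H3DP1, HIST2H2BA, HIST2H2BB, HIST2H2BC, HIST2H2BD and HIST3H2BA, which are annotated as pseudogenes. The HIST1 group of 55 genes lies on chromosome 6, the 16 HIST2 and 4 HIST3 genes lie on chromosome 1, and HIST4H4 lies on chromosome 12.

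The libraries came from established lines of diffuse large B cell lymphoma of germinal centre type, in each of which EZH2 carries an activating change in its catalytic SET domain. The groups were RL with 0.1% DMSO (n = 2), KARPAS-422 with 1.5 µM of the EZH2 inhibitor CPI-169 (n = 3), KARPAS-422 with 0.1% DMSO (n = 3), Pfeiffer with 1.5 µM of the EZH2 inhibitor GSK343 (n = 2) and Pfeiffer with 0.1% DMSO (n = 2), all collected on day 4. The series describes KARPAS-422 and Pfeiffer as responsive lines and RL as not responsive, and RL was profiled with DMSO alone. CPI-169 is the name in the treatment protocol and the library titles, and the treatment entry of the same libraries reads CPI524169. RL was seeded at 200000 cells per ml, against 500000 for KARPAS-422 and Pfeiffer, per the labels, so line and seeding density cannot be told apart between RL and the others. Each inhibitor was used in a different line, so inhibitor and line cannot be told apart, and each line stands for itself only. Values are FPKM, that is fragments per kilobase of transcript, scaled to the mapped fragments of the library.

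Absolute sequencing depth is unknown. Within a line, relative depth read from the steps between low FPKM values was set to 1 in the first DMSO library. On that scale the RL libraries reached down to 0.774, the KARPAS-422 libraries down to 0.646, and the Pfeiffer libraries up to 1.33. The B cell genes CD79B and PAX5 were present in all lines, whereas CD79A lay at 11.2 to 17.6 FPKM in the 4 Pfeiffer libraries and at 329.8 FPKM or more in the others, and CD3G, a T cell receptor subunit, lay at 34.0 to 55.2 FPKM in KARPAS-422 with CD2 at 0. EPCAM, an epithelial adhesion gene, lay at 49.8 to 135 FPKM in Pfeiffer. The first CPI-169 library stood apart from the other CPI-169 libraries in short RNAs without a poly(A) tail, with RN7SK at 133 FPKM against 5.40 and 24.9 FPKM. The GSK343 libraries also differed from each other, with histone FPKM sums of 389.9 and 214.8. Separate cultures are not stated for the replicates, and the p-values then speak only to the spread among these libraries, which may be technical.

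Replication-dependent histone genes are transcribed mainly in S phase, when new DNA has to be packaged. Their transcripts normally end in a conserved stem-loop bound by SLBP instead of a poly(A) tail, and U7 snRNP directs the cut just after it. Some of these genes, HIST1H2BK and HIST1H2AC among them, also give longer, spliced or polyadenylated transcripts, which are known from differentiated or non-dividing cells. A list of 6 such genes (HIST1H1C, HIST1H2AC, HIST1H2BD, HIST1H2BK, HIST2H2BE and HIST4H4) is called the polyadenylated list below. Whether the libraries were made by poly(A) selection is not given in the sources used here.

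The stem-loop motif was searched as GG, any 2 bases, CTTTT, any base, AG, any 2 bases and CC. It was found in a GENCODE 29 transcript of 34 of the 76 genes, against 0.264% of 19702 protein-coding genes. Only the sense strand was searched, and a transcript annotated short of its stem-loop could not match. It is shown in capitals, with 5 bases on each side, for 4 genes of the polyadenylated list, for HIST2H2AA4 and for HIST1H2AI, a short gene that fell in treated Pfeiffer cells, so that what follows the stem-loop can be compared.

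HIST1H2AC: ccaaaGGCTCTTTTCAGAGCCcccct

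HIST1H2BD: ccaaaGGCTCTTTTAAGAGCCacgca

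HIST2H2BE: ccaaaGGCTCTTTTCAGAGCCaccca

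HIST4H4: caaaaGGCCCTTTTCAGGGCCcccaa

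HIST2H2AA4: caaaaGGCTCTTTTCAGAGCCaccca

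HIST1H2AI: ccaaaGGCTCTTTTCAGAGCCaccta

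The 6 genes shown are among those with a match, and they differed in what follows the stem-loop. HIST1H2BK and HIST1H1C, the other genes of the polyadenylated list, had no match and are not shown. In HIST1H2AI the transcript of 503 nt ended 39 bases after the stem-loop, whereas 1128 bases followed it in the 1668 nt transcript of HIST1H2AC and 1729 bases in the 2194 nt transcript of HIST2H2BE. The poly(A) hexamer AATAAA lay within the last 50 bases of a transcript in 24 of the 76 genes, against 69.8% of protein-coding genes, and 21 genes held both motifs. The last 30 bases of 4 transcripts are given here with the hexamer in capitals.

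HIST1H2AC: tAATAAAaggtaatgcaaagggagaggaaa

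HIST1H2BD: taattAATAAAatctgcggagaattgtaaa

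HIST2H2BE: gttattAATAAAgttaccaattaatttaaa

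HIST2H2AA4: cgttttcaAATAAAagagttgttaatgctg

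The HIST1H2BD transcript of 789 nt that ends in this way had no stem-loop match, and its 496 nt transcript did. In HIST2H2AA4 the transcript ended 35 bases after the stem-loop and held the hexamer within that stretch. For HIST1H1B, HIST1H2AJ and HIST1H3B the annotated transcripts of 681, 387 and 411 nt held no match to the stem-loop letters. Transcripts this short may lack the end of the RNA, so the stem-loop cannot be called absent from these genes.

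Histone RNA was a small share of each library. The summed FPKM of the 76 genes was 44.7 and 52.1 in RL, 284.8 to 326.4 in CPI-169-treated KARPAS-422, 132.3 to 156.7 in KARPAS-422 with DMSO, 389.9 and 214.8 in GSK343-treated Pfeiffer, and 232.6 and 209.6 in Pfeiffer with DMSO. As a share of all FPKM this was at most 0.0799% in a CPI-169 library and at least 0.00981% in an RL library. A single gene made up much of the KARPAS-422 sum: HIST1H2BK, an H2B gene, held 42.2 to 45.2% of the histone sum with CPI-169 and 55.1 to 57.0% with DMSO. In Pfeiffer it held 17.5% and 21.0% with GSK343 and 9.09% and 9.33% with DMSO, and in RL 26.9% and 23.5%. The number of histone genes at 1 FPKM or more was 12 and 14 in RL, 28, 23 and 24 with CPI-169, 12, 12 and 14 in KARPAS-422 with DMSO, 44 and 36 with GSK343, and 53 and 51 in Pfeiffer with DMSO. The levels were thus carried by a few genes in KARPAS-422 and RL and spread over most of the family in Pfeiffer with DMSO.

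**Figure D1:**
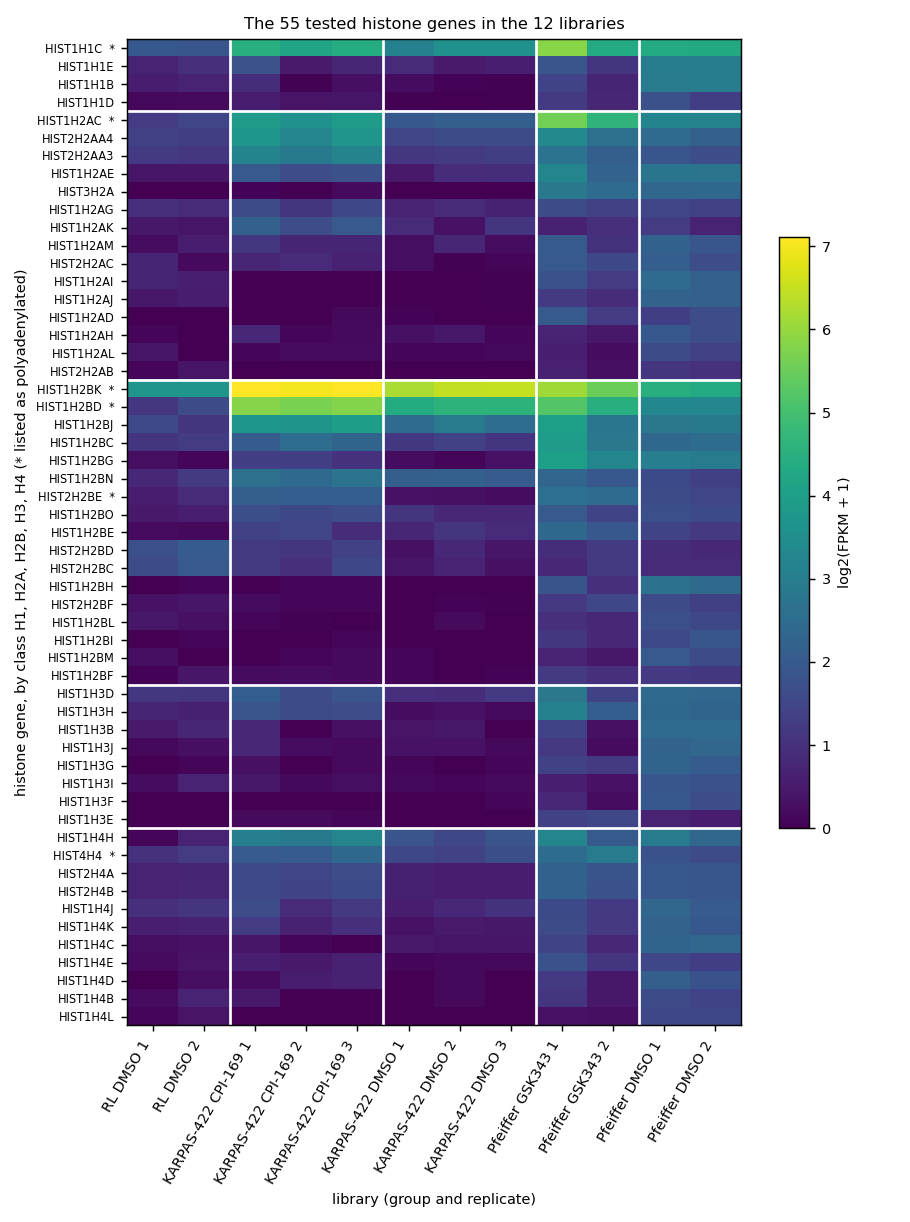
Level of the 55 tested histone genes (vertical axis, grouped by class, highest mean first in each class) in the 12 libraries (horizontal axis, by group and replicate), as log2(FPKM + 1). The color scale runs from dark (0) to bright. In the Pfeiffer columns with DMSO most genes of all 5 classes were above the dark end, whereas in the RL columns and the KARPAS-422 columns with DMSO most genes were dark and HIST1H2BK was the brightest.

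For each comparison, limma was fitted to log2(FPKM + 1) across the 18731 genes that reached 1 FPKM in any 2 or more of the 12 libraries. Of the 76 histone genes 55 passed this filter, 18 of the others had some signal, and HIST1H2AA, HIST1H2BA and HIST1H4G were listed at 0 in every library. A listed 0 need not mean absence, since the 13 mitochondrially encoded protein genes were also listed at 0 throughout. Of the 55 genes, 27 passed through the Pfeiffer libraries alone. They therefore had to be higher in Pfeiffer, and counts between lines give no support on them. Adjusted p-values are from limma with Benjamini-Hochberg adjustment over all tested genes, a change is called below 0.05, and each log2 difference is one of log2(FPKM + 1), which understates changes of low genes.

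With CPI-169, 27 of the 55 tested histone genes rose and none fell in KARPAS-422. The background was 26.9% of all tested genes higher and 27.3% lower with CPI-169. No histone gene was lower at an unadjusted p below 0.05 in limma either, and 29 were higher. With a pseudocount of 0.1, or without either GSK343 library, HIST1H4C was called lower (adjusted p = 0.049, 0.0444 and 0.0449). The median log2 difference was 0.44 over the 55 genes and 0.0078 over all tested genes. By class, 2 of 4 tested H1, 7 of 15 H2A, 10 of 17 H2B, 2 of 8 H3 and 6 of 11 H4 genes were higher. The H3 count was near the background share. In bulk RNA a change in the share of cells that transcribe these genes and a change in RNA per cell cannot be told apart.

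The genes with the highest levels were among those that rose. HIST1H2BK, at chr6:27106072-27114619 (hg19), was at 138, 129 and 137 FPKM with CPI-169, against 72.9, 86.4 and 89.3 FPKM with DMSO. Every CPI-169 library was thus above every DMSO library, and the log2 difference was 0.70 (SE 0.13, adjusted p = 0.00107). HIST1H2BD, an H2B gene of the polyadenylated list, was at 55.2, 50.3 and 54.9 FPKM with CPI-169, against 19.9, 23.3 and 23.4 FPKM with DMSO, a log2 difference of 1.23 (SE 0.18, adjusted p = 0.000162). HIST1H2AC, an H2A gene, was at 13.1, 11.2 and 14.2 FPKM with CPI-169, against 2.92, 3.43 and 3.42 FPKM with DMSO, and rose by 1.70 (SE 0.20, adjusted p = 3.99e-05). In both genes, too, every treated library was above every DMSO library.

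The 3 highest log2 differences with CPI-169 were those of HIST2 genes on chromosome 1. HIST2H2AA4, an H2A gene at chr1:149822642-149823191 (hg19), was at 12.4, 8.66 and 12.1 FPKM with CPI-169, against 1.83, 2.06 and 2.12 FPKM with DMSO, and rose by 1.99 (SE 0.18, adjusted p = 6.85e-06). Its near-identical copy HIST2H2AA3 rose by 1.88 (SE 0.15), and how the authors' quantification split reads between the copies is not known. HIST2H2BE, an H2B gene whose long transcript is shown above, was at 3.49, 3.38 and 3.41 FPKM with CPI-169, against 0.276, 0.256 and 0.170 FPKM with DMSO. It was below 1 FPKM in every DMSO library and rose by 1.84 (SE 0.09, adjusted p = 1.01e-07). In all, 8 of the 10 tested HIST2 genes rose with CPI-169, as did 18 of the 43 tested HIST1 genes, against 26.9% of all tested genes. The 8 include 3 sets of near-identical copies, HIST2H2AA3 with HIST2H2AA4, HIST2H4A with HIST2H4B, and HIST2H2BC with HIST2H2BD. Their counts are not independent, and the difference between the symbol groups was not tested.

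Among the H3 and H4 genes, HIST1H3H was at 2.64, 2.17 and 2.19 FPKM with CPI-169, against 0.177, 0.273 and 0.125 FPKM with DMSO, and rose by 1.48 (SE 0.20, adjusted p = 9.06e-05). HIST1H4H, the H4 gene with the highest mean, was at 7.35, 6.29 and 8.47 FPKM with CPI-169, against 2.70, 1.83 and 2.69 FPKM with DMSO, and rose by 1.30 (SE 0.29, adjusted p = 0.0032). HIST1H1C, a linker histone gene, was at 21.4, 16.8 and 20.4 FPKM with CPI-169, against 7.69, 11.1 and 11.2 FPKM with DMSO, a log2 difference of 0.91 (SE 0.30, adjusted p = 0.0248). That call was lost without the first CPI-169 library, the third CPI-169 library or the first DMSO library (adjusted p = 0.0734, 0.067 and 0.0912). The libraries of HIST1H1C did not overlap between the groups, and neither did those of HIST1H3H and HIST1H4H.

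HIST1H1B and HIST1H1E did not pass the test with CPI-169. HIST1H1B, a linker histone gene, was at 0.917, 0.0362 and 0.231 FPKM with CPI-169, against 0.176, 0.0545 and 0.0373 FPKM with DMSO (log2 difference 0.31, SE 0.22, adjusted p = 0.269). HIST1H1E was at 2.51, 0.437 and 0.698 FPKM with CPI-169, against 0.817, 0.439 and 0.525 FPKM with DMSO. In both genes the first CPI-169 library was the highest and the others lay near or within the DMSO values. HIST1H2AI and HIST1H2AJ were listed at 0 in every CPI-169 library and in 2 of the 3 DMSO libraries.

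With GSK343, the family split in Pfeiffer: 12 of the 55 tested histone genes rose and 23 fell. The background was 12% of all tested genes higher and 17.5% lower with GSK343. The median log2 difference was -0.14 over the 55 genes and -0.0334 over all tested genes. The lower genes lay mostly in H1 (3 of 4 tested), H3 (5 of 8) and H4 (6 of 11), with 5 of 15 H2A and 4 of 17 H2B genes lower. The higher genes were 7 H2B, 3 H2A, 1 H3 and 1 H4 gene. Of the 23 lower genes 8 passed the expression filter only through the DMSO libraries of Pfeiffer, and thus could enter only by being higher there. Without genes that entered through 1 Pfeiffer group alone, 15 of 46 were lower. Many of these 15, HIST1H1B, HIST1H3B, HIST1H3J and HIST1H2AJ among them, reached 1 FPKM in 1 GSK343 library and in no other line. Such genes still needed a Pfeiffer DMSO library to pass. Among the 28 genes that reached 1 FPKM in at least 1 library of another line, 11 rose and 3 fell with GSK343. Of the 3, HIST1H1E and HIST1H4K reached it outside Pfeiffer in the first CPI-169 library alone, and so still needed Pfeiffer libraries to pass. The split followed the symbol group too, with 22 of 43 tested HIST1 genes lower and 1 of 10 tested HIST2 genes lower, a difference that was not tested. The tested HIST2 genes include near-identical copies, which are not independent. The count of higher genes was 6 without the first GSK343 library or the second Pfeiffer DMSO library and 20 without the second GSK343 library. Fitted on the 4 Pfeiffer libraries alone, limma called none at the adjusted threshold, and 8 genes were higher and 22 lower at an unadjusted p below 0.05.

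The genes that rose with GSK343 included most of the polyadenylated list. HIST1H2BK was at 68.1 and 45.2 FPKM with GSK343, against 21.1 and 19.6 FPKM with DMSO, and rose by 1.40 (SE 0.16, adjusted p = 0.00014). HIST1H2AC was at 47.9 and 24.0 FPKM with GSK343, against 8.26 and 8.16 FPKM with DMSO, and rose by 1.92 (SE 0.24, adjusted p = 0.000276). HIST1H2BD was at 35.8 and 21.1 FPKM with GSK343, against 9.07 and 8.74 FPKM with DMSO, and rose by 1.53 (SE 0.22, adjusted p = 0.000556). In each of these 3 genes both GSK343 libraries were above both DMSO libraries, and the first GSK343 library was the higher one.

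HIST2H2BE was at 5.10 and 4.66 FPKM with GSK343, against 2.09 and 1.80 FPKM with DMSO, and rose by 1.00 (SE 0.11, adjusted p = 0.000112). HIST4H4, an H4 gene apart from the clusters, was at 4.68 and 6.63 FPKM with GSK343, against 2.47 and 2.15 FPKM with DMSO, and rose by 1.00 (SE 0.17, adjusted p = 0.00183). In HIST4H4 the second GSK343 library was the higher one. HIST1H1C was at 56.8 and 19.2 FPKM with GSK343, against 19.5 and 18.9 FPKM with DMSO, and did not pass the test (log2 difference 0.76, SE 0.37, adjusted p = 0.148). Its second GSK343 library lay between the DMSO libraries. HIST1H2BC, HIST1H2BG and HIST2H2AA4 passed weakly, with log2 differences of 0.90, 0.67 and 0.67 (adjusted p = 0.0334, 0.0325 and 0.0458), and these calls were lost without the first GSK343 library or either Pfeiffer DMSO library.

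The genes that fell were led by H1 and H3. HIST1H1B, at chr6:27834569-27835359 (hg19), was at 1.71 and 0.660 FPKM with GSK343, against 6.54 and 7.12 FPKM with DMSO, and fell by 1.88 on the log2 scale (SE 0.27, adjusted p = 5.89e-04). HIST1H3B, an H3 gene, was at 1.70 and 0.243 FPKM with GSK343, against 4.57 and 4.58 FPKM with DMSO, and fell by 1.61 (SE 0.33, adjusted p = 0.00495). HIST1H2AJ, an H2A gene, was at 1.33 and 0.869 FPKM with GSK343, against 3.83 and 3.58 FPKM with DMSO, and fell by 1.17 (SE 0.10, adjusted p = 2.43e-05). Both treated libraries lay below both DMSO libraries in each of these genes. HIST1H1E fell by 1.51 (SE 0.37), HIST1H3J by 1.61 (SE 0.27), HIST1H3I by 1.38 (SE 0.15) and HIST1H3F by 1.29 (SE 0.16). HIST1H3I and HIST1H3F are among the genes that passed the filter through the Pfeiffer DMSO libraries alone. HIST1H1B, HIST1H3B, HIST1H3J and HIST1H2AJ reached 1 FPKM in 1 GSK343 library and in no other line. They also needed a Pfeiffer DMSO library to pass.

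**Figure D2:**
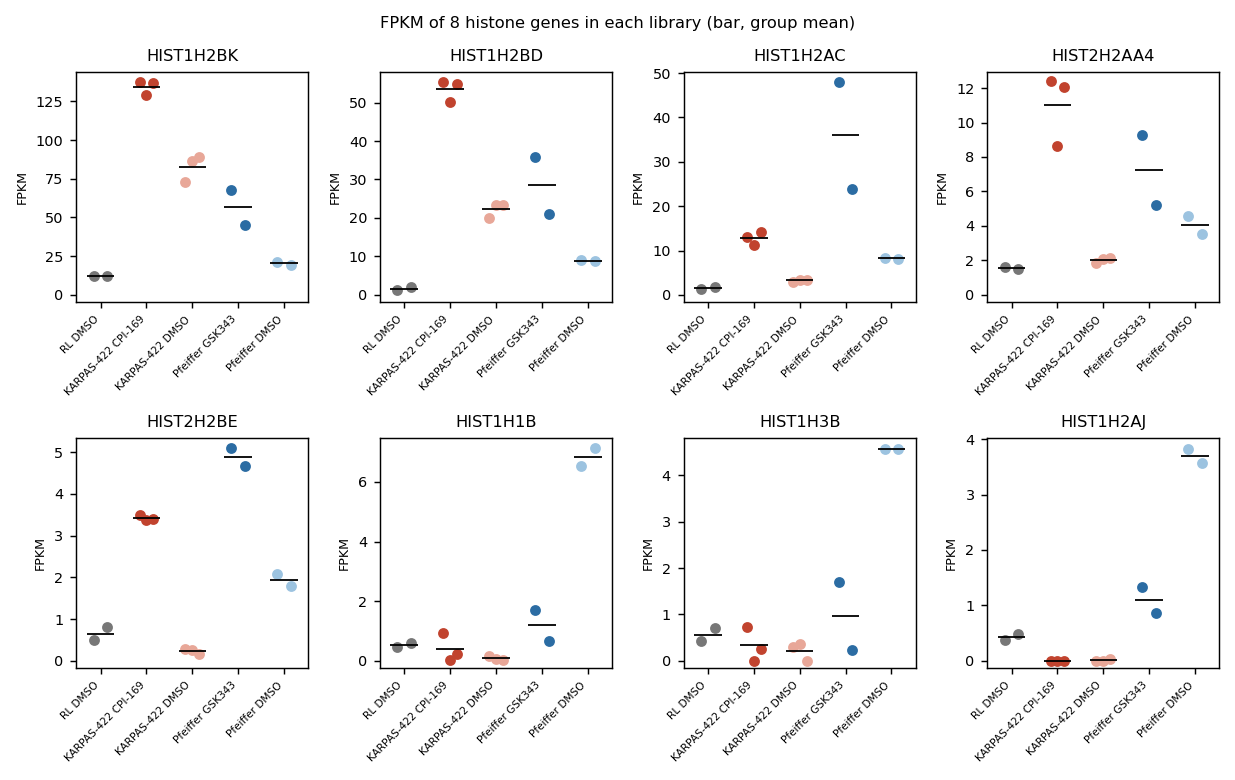
FPKM (vertical axis, linear) of 8 histone genes in each library, by group (horizontal axis), with a bar at the group mean. HIST1H2BK, HIST1H2BD, HIST1H2AC, HIST2H2AA4 and HIST2H2BE were higher in every inhibitor library than in every DMSO library of the same line, while HIST1H1B, HIST1H3B and HIST1H2AJ were lower in both GSK343 libraries than in both Pfeiffer DMSO libraries and near 0 in KARPAS-422.

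Genes of the S phase machinery moved in the same Pfeiffer comparison. All 30 of a list of replication genes (the MCM helicase, GINS, polymerase and nucleotide synthesis genes among them) were lower with GSK343. The background was 17.5% of all tested genes lower, and the median log2 difference of the 30 was -1.54. CDC45, a part of the replicative helicase, had the smallest adjusted p among the 30. In KARPAS-422 the same list held 10 genes higher and 10 lower with CPI-169, with a median of 0.04. Both counts were near the background of 26.9% higher and 27.3% lower. SLBP, which binds the histone stem-loop, was at 38.1 and 25.5 FPKM with GSK343, against 80.1 and 78.4 FPKM with DMSO, and fell by 1.32 (SE 0.16, adjusted p = 0.000209). With CPI-169 it was at 39.2, 32.2 and 37.3 FPKM, against 29.9, 34.8 and 34.1 FPKM with DMSO (log2 difference 0.13, adjusted p = 0.434). The part of these genes in the histone differences was not tested.

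The genes were next grouped by the polyadenylated list and by annotation. The background for these counts was 26.9% of all tested genes higher and 27.3% lower with CPI-169. With GSK343 it was 12% higher and 17.5% lower. HIST1H2BK, HIST1H1C and HIST4H4 of the list had no AATAAA match near a transcript end, HIST1H2BK and HIST1H1C had no stem-loop match either, and the HIST1H1C locus spans 733 bp, so list and annotation set different genes apart. All 6 genes of the polyadenylated list rose with CPI-169 and 5 of 6 rose with GSK343, while of the other 49 tested histone genes 21 rose and none fell with CPI-169, and 7 rose and 23 fell with GSK343. The summed FPKM of the 6 genes was 234.0, 213.7 and 234.2 with CPI-169, against 105.5, 126.1 and 129.8 with DMSO, and 218.3 and 120.8 with GSK343, against 62.6 and 59.3 with DMSO. The summed FPKM of the other 70 genes was 92.4, 71.2 and 86.7 with CPI-169, against 26.7, 29.6 and 26.9 with DMSO. In Pfeiffer it was 171.6 and 94.0 with GSK343, against 170.0 and 150.3 with DMSO. Both sums were above the DMSO libraries in every CPI-169 library, whereas in Pfeiffer only the sum of the listed genes was above them in both GSK343 libraries. The 23 other genes that fell with GSK343 include the 8 that passed the filter only through the Pfeiffer DMSO libraries. Those 8 could enter only by being higher there. The list was chosen with earlier results on these libraries known, so its counts are a description.

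By annotation, among the 17 tested genes whose locus in the table spans more than 1000 bp, 14 rose and none fell with CPI-169, and 7 rose and 1 fell with GSK343. Among the 38 tested genes with shorter loci, 13 rose and none fell with CPI-169, and 5 rose and 22 fell with GSK343. Those 5 became 1 without the first GSK343 or the second Pfeiffer DMSO library, 2 without the first Pfeiffer DMSO library and 9 without the second GSK343 library. Of the 21 tested genes with the AATAAA hexamer near a transcript end, 15 rose with CPI-169, and 8 rose and 3 fell with GSK343. Of the 34 without it, 12 rose with CPI-169, and 4 rose and 20 fell with GSK343. The 5 of 38 and the 4 of 34 that rose with GSK343 were near the background. The 22 and the 20 that fell both include the 8 genes that passed the filter only through the Pfeiffer DMSO libraries. These 8 could enter only by being higher there, so the counts of lower genes by annotation are a description. Many of the 34 have only short annotated transcripts, such as 381 nt for HIST1H2BK and 411 nt for HIST1H3B. Sequence beyond such an end was not searched, so no match there does not show that the hexamer is absent. A hexamer can also lie outside the locus of the table, where HIST1H2BH spans 426 bp against a transcript of 2060 nt. Loci ranged from 355 to 29685 bp, and 15 of the 76 overlap another gene of the table. HIST1H2BK spans HIST1H4I and HIST1H2BD spans LARP1P1, so reads in the shared stretches are uncertain.

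**Figure D3:**
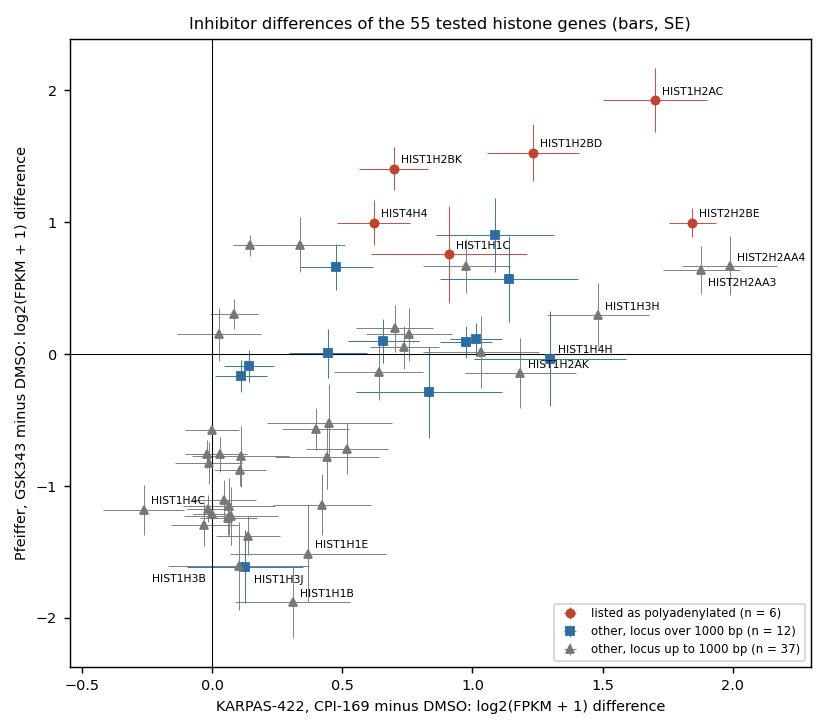
Log2(FPKM + 1) difference with CPI-169 in KARPAS-422 (horizontal axis) against that with GSK343 in Pfeiffer (vertical axis) for the 55 tested histone genes, with SE bars. The 6 genes of the polyadenylated list lie in the upper right, and most of the 37 other genes with loci up to 1000 bp lie below 0 on the vertical axis. These 37 include the 8 genes that passed the filter only through the Pfeiffer DMSO libraries.

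Setting the inhibitors side by side, 10 histone genes rose in both comparisons, which is 37.0% of those that rose with CPI-169 and 83.3% of those that rose with GSK343. Of the 55 tested, 27 rose with CPI-169 and 12 with GSK343, so some overlap follows from these counts alone. The overlap over all tested genes was not counted, and the shares are a description. Of the 10, 5 are on the polyadenylated list. HIST1H1D and HIST1H4K rose with CPI-169 and fell with GSK343, and HIST1H2BE and HIST1H3E rose with GSK343 and did not pass with CPI-169. These 4 are named after their values were seen. HIST1H4K, an H4 gene, was at 1.35, 0.565 and 0.989 FPKM with CPI-169, against 0.276, 0.426 and 0.374 FPKM with DMSO, and at 2.06 and 1.27 FPKM with GSK343, against 3.85 and 2.88 FPKM with DMSO. HIST1H3E was at 1.63 and 1.85 FPKM with GSK343, against 0.618 and 0.479 FPKM with DMSO, and entered the test through the GSK343 libraries alone.

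The difference between the inhibitor effects was tested as an interaction, CPI-169 effect minus GSK343 effect. It was positive for 34 and negative for 2 of the 55 genes, against a background of 23.8% and 18.8% of all tested genes, and the median was 0.88 over the 55 genes and 0.0724 over all tested genes. The 8 genes that entered through the Pfeiffer DMSO libraries alone are counted here. So is HIST1H3E, 1 of the 2 negative genes, which entered through the GSK343 libraries alone. Among the 28 genes that reached 1 FPKM in at least 1 library of another line, 13 were positive and 1 was negative. Of the polyadenylated list, 1 gene passed with a positive difference, HIST2H2BE at 0.85 (SE 0.14, adjusted p = 0.000957), and 1 with a negative one, HIST1H2BK at -0.71 (SE 0.21, adjusted p = 0.0197). Without the second Pfeiffer DMSO library the HIST1H2BK difference was not called (adjusted p = 0.071) and 1 gene was negative, and without the second GSK343 library 6 were. The highest positive difference was that of HIST1H1B, at 2.19 (SE 0.35, adjusted p = 0.000684).

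Many H2A and H2B genes stand head to head and share the DNA between their starts. The family holds 16 divergent pairs made of 30 genes, with gaps of 128 to 345 bp between the loci. Of these, 14 pair an H2A with an H2B gene, the other 2 pair an H3 with an H2B gene, and 12 H2A/H2B pairs had both partners tested. The partners need not move together. HIST1H2BK rose by 1.40 with GSK343, while its neighbour HIST1H2AH was at 0.644 and 0.377 FPKM with GSK343, against 2.86 and 2.21 FPKM with DMSO, and fell by 1.23 (SE 0.22, adjusted p = 0.00223). HIST2H2BE rose by 1.00 with GSK343, against -0.14 (adjusted p = 0.663) for its partner HIST2H2AC. By contrast HIST1H2BC and HIST1H2AC rose by 0.90 and 1.92, and HIST1H2BM and HIST1H2AJ fell by 1.24 and 1.17. In KARPAS-422 with CPI-169, HIST1H2AH gave a log2 difference of 0.07 (adjusted p = 0.784) beside 0.70 for HIST1H2BK. HIST1H2AH, HIST2H2AC and HIST1H2BM lie outside the rule for named genes and are given for their neighbours, after their values were seen. HIST1H2AH and HIST1H2BM passed the filter only through the Pfeiffer DMSO libraries, and HIST1H2AJ needed such a library to pass. The falls of these genes are therefore a description.

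**Figure D4:**
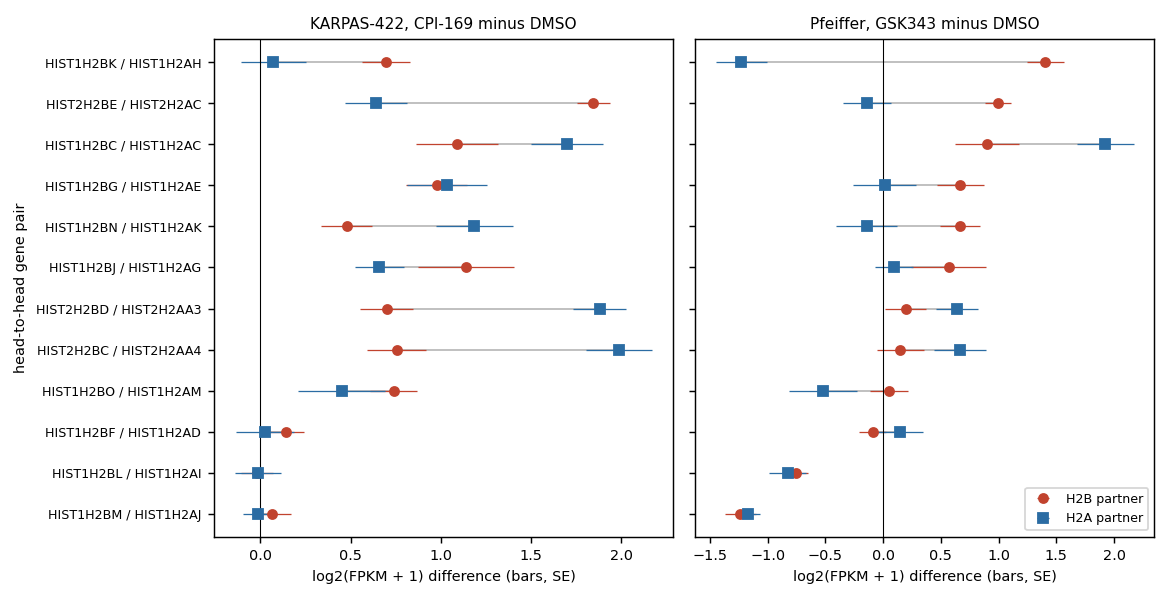
Log2(FPKM + 1) differences (horizontal axis, bars SE) of the H2B and H2A partners of 12 head-to-head pairs (vertical axis), with CPI-169 in KARPAS-422 in the left panel and with GSK343 in Pfeiffer in the right panel. HIST1H2BK and HIST1H2AH lie farthest apart in the Pfeiffer panel, at 1.40 and -1.23, and HIST1H2BM and HIST1H2AJ lie together at -1.24 and -1.17. HIST1H2AH and HIST1H2BM passed the filter only through the Pfeiffer DMSO libraries.

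The sequence before the start is shown for 3 genes of these pairs: HIST1H2BK, which moved against its partner, HIST1H2AC, which rose with its partner, and HIST1H2AJ, which fell with its partner. Each is 250 bases from RefSeq on GRCh38.p14, chr6:27146859-27147108 (minus strand), chr6:26123922-26124171 (plus strand) and chr6:27814778-27815027 (minus strand) in that order, written 5′ to 3′ on the strand of the named gene. Capitals mark the TATA box TATAAA, the CCAAT box CCAAT and the octamer ATTTGCAT, searched on both strands. The octamer is the site known to be bound by OCT1 in H2B promoters.

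HIST1H2BK: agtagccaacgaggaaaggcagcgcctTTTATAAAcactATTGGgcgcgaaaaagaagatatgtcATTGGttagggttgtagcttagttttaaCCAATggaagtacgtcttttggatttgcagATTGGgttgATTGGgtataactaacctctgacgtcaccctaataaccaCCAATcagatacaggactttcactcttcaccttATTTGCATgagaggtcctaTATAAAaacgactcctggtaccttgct

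HIST1H2AC: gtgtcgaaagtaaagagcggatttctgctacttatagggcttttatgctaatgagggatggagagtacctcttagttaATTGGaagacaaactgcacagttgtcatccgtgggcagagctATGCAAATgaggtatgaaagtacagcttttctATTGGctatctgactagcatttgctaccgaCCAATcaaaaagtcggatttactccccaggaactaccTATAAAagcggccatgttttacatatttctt

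HIST1H2AJ: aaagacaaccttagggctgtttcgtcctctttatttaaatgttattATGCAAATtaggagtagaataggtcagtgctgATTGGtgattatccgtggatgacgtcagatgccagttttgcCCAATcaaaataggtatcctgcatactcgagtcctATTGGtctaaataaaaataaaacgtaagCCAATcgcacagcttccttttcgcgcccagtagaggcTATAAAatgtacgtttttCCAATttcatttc

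Each of the 3 stretches held 1 octamer, with 6, 3 and 5 CCAAT boxes in that order, and each held TATAAA, which in HIST1H2BK matched both strands in 1 overlapping run. Promoters from 250 bases before to 50 bases after the start were found in RefSeq for 65 of the 76 genes. TATAAA was present in 66.2% of them, CCAAT in 84.6% and the octamer in 40.0%, against 11.95%, 35.7% and 1.80% of 27305 RefSeq promoters. The octamer was found in 11 of 16 H2A and 14 of 18 H2B promoters, in 1 of 12 H3 promoters and in none of the 6 H1 and 13 H4 promoters. Pairs share most of this stretch, so their matches are not independent. Of the 3 genes shown, HIST1H2BK and HIST1H2AC rose and HIST1H2AJ fell with GSK343, and each held all 3 motifs. Over the family the motifs were not counted by direction of change. The genes lower with GSK343 lay mostly in H1, H3 and H4, the classes with few or no octamer matches.

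Between lines with DMSO, Pfeiffer had the most histone genes detected. RL was lower than Pfeiffer in 52 and higher in 2 of the 55 tested genes, against a background of 38.7% lower and 35.6% higher. KARPAS-422 was lower than Pfeiffer in 46 and higher in 3, against 43.2% lower and 39.8% higher. Among the 28 genes that reached 1 FPKM in at least 1 library of another line, RL was lower than Pfeiffer in 25 and KARPAS-422 in 19. Some of these, such as HIST1H1E, reached it in 1 such library only and still needed Pfeiffer libraries to pass. RL was higher than KARPAS-422 in 8 and lower in 10 of the 55 genes, against a background of 33.6% higher and 33.2% lower. With the DMSO libraries fitted alone, RL was higher than KARPAS-422 in 13 genes.

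The order of the lines changed from gene to gene. HIST1H2BK was at 12.01 and 12.22 FPKM in RL, against 72.9 to 89.3 FPKM in KARPAS-422 (log2 difference -2.67, SE 0.15) and 21.1 and 19.6 FPKM in Pfeiffer (-0.70, SE 0.16). HIST1H2BD was at 1.19 and 2.13 FPKM in RL, against 19.9 to 23.4 FPKM in KARPAS-422 (-3.14, SE 0.20) and 9.07 and 8.74 FPKM in Pfeiffer (-1.92, SE 0.22). Both genes were thus highest in KARPAS-422 and lowest in RL, with no overlap. HIST1H1C was at 2.86 and 2.74 FPKM in RL, against 7.69 to 11.2 FPKM in KARPAS-422 and 19.5 and 18.9 FPKM in Pfeiffer. HIST1H2BN, an H2B gene, was at 0.755 and 1.31 FPKM in RL, 3.12 to 3.50 FPKM in KARPAS-422 and 2.02 and 1.53 FPKM in Pfeiffer. With HIST1H2BK and HIST1H2BD it was 1 of the 3 histone genes higher in KARPAS-422 than in Pfeiffer.

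HIST3H2A, an H2A gene of chromosome 1, was listed at 0 in both RL libraries and in the 3 KARPAS-422 DMSO libraries and was at 4.07 and 4.27 FPKM in Pfeiffer with DMSO. HIST1H2BG, an H2B gene, was at 0.194 and 0.0834 FPKM in RL and at 0.0968 to 0.265 FPKM in KARPAS-422, against 7.20 and 6.58 FPKM in Pfeiffer. RL and KARPAS-422 overlapped in this gene (adjusted p = 0.835). HIST2H2BD and HIST2H2BC, annotated as H2B pseudogenes and near-identical, were the 2 genes higher in RL than in Pfeiffer. HIST2H2BD was at 2.36 and 3.24 FPKM in RL, against 0.254 to 0.742 FPKM in KARPAS-422 (1.40, SE 0.16) and 0.896 and 0.755 FPKM in Pfeiffer (1.05, SE 0.18).

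Other RNAs without a poly(A) tail were also mostly lower in RL and KARPAS-422 than in Pfeiffer. Of 24 tested RNAs of this kind, such as RN7SK, RMRP, RPPH1 and small Cajal body RNAs, 23 were lower in RL and 24 were lower in KARPAS-422 than in Pfeiffer, against backgrounds of 38.7% and 43.2% of all tested genes. Of the 24, 7 passed the filter through Pfeiffer libraries alone and so had to be higher there, and all of the other 17 were lower in RL and in KARPAS-422. RL was lower than KARPAS-422 in 2 and higher in none. Without RN7SL1 and RN7SL2 their summed FPKM was 17.8 and 55.3 in RL, 17.6 to 40.6 in KARPAS-422 with DMSO, and 1506 and 1186 in Pfeiffer with DMSO. With GSK343 0 of 24 passed in limma in either direction, 1 was higher and 0 were lower at an unadjusted p below 0.05, and the sums were 2730 and 1284. With CPI-169 the sums were 450.5, 18.4 and 71.2, and SCARNA2 and SCARNA13 rose. Line and library preparation cannot be told apart here, and the part of RNAs without a poly(A) tail in the line differences was not tested.

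**Figure D5:**
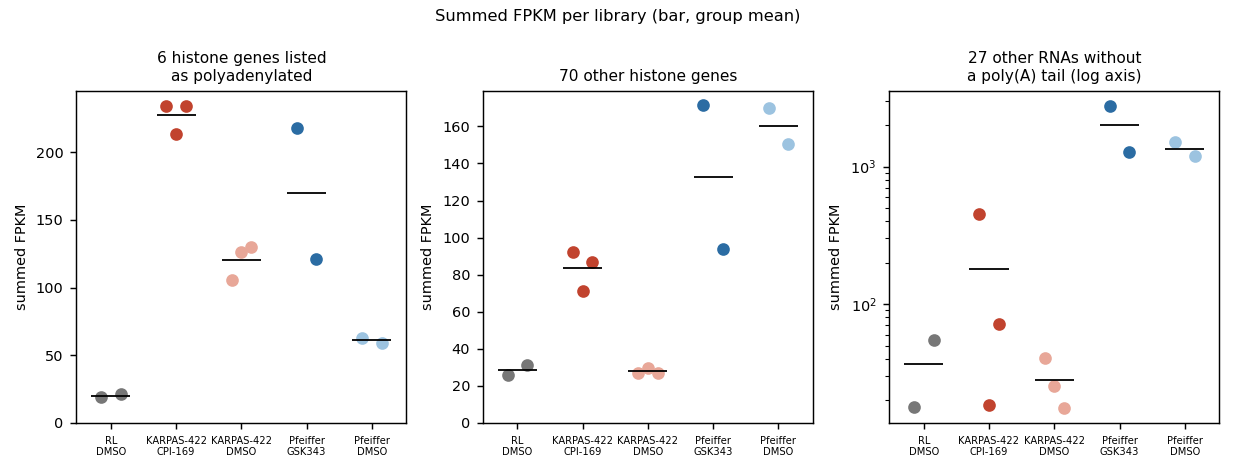
Summed FPKM per library (vertical axis) by group (horizontal axis, bar at the group mean) of the 6 histone genes of the polyadenylated list, of the 70 other histone genes and, on a log axis, of 27 other RNAs without a poly(A) tail. With GSK343 the first sum was 218.3 and 120.8, against 62.6 and 59.3 with DMSO, the second sum spanned the DMSO values, and the third was above 1000 in all 4 Pfeiffer libraries.

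The remaining H4 genes show how copies of 1 protein class differed, and are named here after their values were seen. HIST2H4A, which has a near-identical copy in HIST2H4B, was at 1.95, 1.82 and 2.21 FPKM with CPI-169, against 0.532, 0.451 and 0.463 FPKM with DMSO, and rose by 1.01 (adjusted p = 1.15e-05). With GSK343 it was at 3.67 and 2.59 FPKM, against 2.84 and 2.74 FPKM with DMSO, and did not pass (adjusted p = 0.533). HIST1H4C was at 1.75 and 0.754 FPKM with GSK343, against 3.89 and 4.06 FPKM with DMSO, and fell by 1.18 (adjusted p = 0.00117). HIST1H4L was listed at 0 in all 6 KARPAS-422 libraries and was at 0.275 and 0.229 FPKM with GSK343, against 1.87 and 1.94 FPKM with DMSO. Genes of the same class thus rose, fell or did not pass in the same Pfeiffer libraries.

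Of the 21 histone genes that were not tested, HIST1H3A and HIST2H2BB reached 1 FPKM in 1 library each, at 1.01 FPKM in a Pfeiffer DMSO library and 1.14 FPKM in a GSK343 library. The others stayed at or below 0.973 FPKM, the value of HIST1H4A in a Pfeiffer DMSO library. HIST2H3A and HIST2H3C, near-identical H3 genes, reached 0.480 FPKM each in a CPI-169 library, and HIST1H1A, a linker histone gene, reached 0.0802 FPKM.

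The histone genes known from the male germ line stayed low. HIST1H2AA and HIST1H2BA, which encode testis-type H2A and H2B, were listed at 0 in all 12 libraries. HIST1H1T, the testis linker histone gene, reached at most 0.121 FPKM and HIST3H3, a testis H3 gene, at most 0.119 FPKM. None of the 4 passed the filter.

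Genes for replication-independent histone variants are polyadenylated and expressed outside S phase. Of 11 tested variants 2 rose and 4 fell with CPI-169, and none rose and 6 fell with GSK343. Over all tested genes, 26.9% rose and 27.3% fell with CPI-169, and 12% rose and 17.5% fell with GSK343. The counts of this and the next 2 lists are descriptions beside those shares. H2AFZ, which encodes H2A.Z, was at 170.3 and 167.1 FPKM with GSK343, against 549.1 and 526.6 FPKM with DMSO, and fell by 1.67 (SE 0.13, adjusted p = 1.42e-05). CENPA, the centromeric H3 variant, fell by 2.07 with GSK343 (SE 0.14) and by 0.70 with CPI-169 (SE 0.11). H1FX, a linker variant, rose by 0.54 with CPI-169 (SE 0.10, adjusted p = 0.000681). Of 20 genes for histone transcription and mRNA processing, 4 rose and 9 fell with CPI-169, and none rose and 11 fell with GSK343. NPAT, which activates histone gene transcription, fell by 0.37 with CPI-169 (SE 0.09, adjusted p = 0.00525) and gave -0.19 with GSK343 (adjusted p = 0.217). CASP8AP2, which acts in histone pre-mRNA processing, fell by 0.21 with CPI-169 and by 0.98 with GSK343. Of 21 histone chaperone genes 4 rose and 10 fell with CPI-169, and none rose and 13 fell with GSK343.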

How the data were processed

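The authors deposited 1 table of FPKM values per gene for all 12 libraries, in which every column carries a sample. The submitters' processing notes name TopHat 1.4.1, Cufflinks and the build hg19. Library kit, strand handling and annotation release were not given in the sources used here. Cells were lysed in Trizol or RLT buffer, per the labels' protocols, which do not say which library had which. The table held 63129 IDs, of which 77 with a missing value were left out. Of 106 symbols with the histone prefix, 14 ended in PS and a digit and 16 lay on patches, where all values were 0. Genes that reached 1 FPKM in 2 or more libraries were tested on log2(FPKM + 1) with limma 3.58.1 in R 4.3.3, with 5 groups in 1 model (7 residual degrees of freedom) and Benjamini-Hochberg adjustment at 0.05. FPKM gives no absolute depth, so precision rests on the spread between libraries.

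Named genes were the 12 histone genes with the highest mean, the up to 6 highest and 6 lowest called genes per inhibitor comparison and 5 per line comparison, the highest gene of each class and symbol group, the polyadenylated list and the 4 testis-type genes. Members, lists and tests were chosen with earlier results of these data known. Stem-loops and hexamers were searched in GENCODE 29 transcripts, and promoter motifs in RefSeq sequences of GRCh38.p14. The fit was tested on simulated data. Alternatives were a pseudocount of 0.1, no filter or 5 FPKM, quantile normalization and median scaling. Further ones were a replicate block, each line alone, the DMSO libraries alone and leaving out each library. A scaling without RNAs that lack a poly(A) tail was added after seeing the data.

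Replicate numbers did not pair the KARPAS-422 libraries, where the deviations of same-numbered libraries correlated at -0.152, -0.252 and 0.156. In Pfeiffer, whose 2 pairs are too few to show pairing, same-numbered libraries correlated at 0.14 in both pairs and crossed ones at -0.14.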

Additional observations from a re-analysis of the deposited data

Results flagged for a closer look

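The results here differed between the inhibitor and line pairs, by the interaction test in limma (CPI-169 effect in KARPAS-422 minus GSK343 effect in Pfeiffer, Benjamini-Hochberg adjusted p below 0.05). Of the 55 tested histone genes 34 had a positive difference and 2 a negative one. Of the 55, 8 passed the expression filter only through the Pfeiffer DMSO libraries, HIST1H3I and HIST1H3F among them, and so had to be higher there. HIST1H1B, HIST1H3J, HIST1H3B, HIST1H2AJ and HIST1H2BH reached 1 FPKM in 1 GSK343 library and in no other line. They also needed a Pfeiffer DMSO library to pass. Among the 28 genes that reached 1 FPKM in at least 1 library of another line, 13 were positive and 1 was negative.

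Among the named genes, the linker histone genes HIST1H1B and HIST1H1E gave 2.19 and 1.88 on the log2 scale. The H3 genes HIST1H3J, HIST1H3B, HIST1H3I, HIST1H3F and HIST1H3H gave 1.74, 1.71, 1.51, 1.26 and 1.19. The H2A genes HIST2H2AA4, HIST2H2AA3, HIST1H2AJ and HIST1H2AI gave 1.32, 1.24, 1.16 and 0.81. The H4 gene HIST1H4H gave 1.33, and the H2B genes HIST1H2BH and HIST2H2BE gave 1.22 and 0.85. HIST1H2BK was the only gene of the naming rule called with a negative value, -0.71, where GSK343 gave the higher log2 difference. The other negative call was HIST1H3E, at -0.68 (SE 0.10, limma adjusted p = 0.000467). It lies outside the naming rule and entered the test through the GSK343 libraries alone. The calls of HIST1H4H, HIST1H3B, HIST1H3H, HIST1H2BK, HIST1H2AI and HIST2H2BE were each lost under at least 1 alternative, with limma adjusted p up to 0.163, 0.122, 0.101, 0.071, 0.0551 and 0.0548. HIST1H1B, HIST1H1E and the 5 H3 genes were below 1 FPKM in every KARPAS-422 DMSO library.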

How the results depend on the processing

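No called difference of a named gene turned its direction: of 3048 values under alternatives, 2883 kept their side of the threshold, 41 newly passed it and 124 no longer did. Among differences that had not passed, 41 values in 26 comparisons of single genes changed sign and did not pass either, such as HIST1H4H with GSK343 (-0.66 to 0.59). Leaving out 1 library each, the count of histone genes higher with CPI-169 was 23 to 30 and lower 0 to 1. With GSK343 it was 6 to 20 higher and 17 to 26 lower, for the difference of the effects 26 to 42 higher and 1 to 6 lower. RL against KARPAS-422 gave 6 to 12 higher and 7 to 11 lower, RL against Pfeiffer 2 higher and 48 to 53 lower, and KARPAS-422 against Pfeiffer 3 higher and 42 to 48 lower. At 5 FPKM, which leaves fewer genes, 12 rose with CPI-169, 2 fell with GSK343, 0 were higher in RL than in KARPAS-422, 0 were higher and 14 lower in RL than in Pfeiffer, 10 were lower in KARPAS-422 than in Pfeiffer, and the difference was positive in 6 and negative in 1. With a pseudocount of 0.1, 1 fell with CPI-169, 14 fell with GSK343, 14 were higher in RL than in KARPAS-422 and the difference was negative in 1, as it was without a filter. The cause was not tested. On Pfeiffer alone 0 rose and 0 fell with GSK343, and with the DMSO libraries alone 13 were higher in RL than in KARPAS-422. With the replicate number as a block, 29 rose and 0 fell with CPI-169, 12 rose and 23 fell with GSK343, and the difference was positive in 36 and negative in 2. Quantile normalization moved the median of all genes to 0.13 for RL against Pfeiffer and 0.10 for KARPAS-422 against Pfeiffer, and the added scaling to 0.25 and 0.40. Under the added scaling RL was still lower than Pfeiffer in 48 and KARPAS-422 in 42 histone genes. Absolute depth is unknown, so no detection limit can be given for genes below 1 FPKM. How near-identical copies share reads is not known.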
